A study of Mus musculus with 12 samples.

Results

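The C435A form of IRF7 was compared with the wild-type protein in B16F10 cells stimulated with interferon alpha (IFNα), in 6 of the 12 RNA sequencing libraries of the series, 3 for each form. B16F10 is a transplantable mouse melanoma line, derived from a pigmented tumour of C57BL/6 mice. The libraries used here were those labelled IRF7-C435A mutant with IFNα and wild-type with IFNα, called mutant IFNα and wild-type IFNα. Both groups share the line and the stimulation. Their unstimulated counterparts, 3 mutant control and 3 wild-type control libraries, entered the model that estimated the spread and served to show where the difference with IFNα departs from the difference between the lines without it. The sources used here give neither the dose and duration of IFNα nor how the substitution was introduced, and do not say whether either line is 1 clone. Nothing in the labels says that the libraries of a group came from separate cultures, so p-values measure the spread between these libraries, which may be technical.

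IRF7 is a transcription factor of the innate immune system. It is activated by phosphorylation downstream of sensors of viral nucleic acid and switches on type I interferon genes. Secreted interferon binds its receptor on the same and neighbouring cells, where kinases activate STAT proteins that, together with IRF9, bind response elements in the promoters of interferon-stimulated genes. Irf7 is itself such a gene, which closes a positive loop, and the same response raises antigen presentation by class I molecules of the major histocompatibility complex (MHC). The series title places the substitution in the context of S-nitrosylation, in which a nitric oxide group is added to a cysteine side chain, with NOS1, the neuronal nitric oxide synthase, as its source. C435A replaces a cysteine with alanine.

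The codon concerned lies in the last part of the coding region. In the GENCODE M21 annotation of GRCm38 a coding transcript of Irf7 encodes 457 residues. The codon of the cysteine named in C435A is at chr7:141263294-141263296 on the minus strand. The wild-type reference around it is shown with that cysteine codon in capitals. Whether the substitution was made at this position of the genome is not given in the sources used here. A gene count does not show which codon a library carried.

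Irf7, codon changed by C435A: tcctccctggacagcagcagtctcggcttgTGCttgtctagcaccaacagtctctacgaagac

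Irf7 (ENSMUSG00000025498, chromosome 7, 140842619 to 140846394 in the deposited table) was measured at 4.63, 4.69 and 7.23 FPKM (fragment counts scaled for transcript length and library size) in mutant IFNα, against 8.84, 9.87 and 8.45 in wild-type IFNα. All 3 mutant values lay below the wild-type ones, with mutant IFNα 3 nearest to them. Its log2 fold change, given here and below as mutant over wild type with its standard error, was −0.62 ± 0.167 and did not pass (adjusted p = 0.113). In the controls it was −1.23 ± 0.169 and passed (adjusted p = 0.0057).

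The deposited counts summed to between 60511573 and 75927461 per library. Melanocyte markers were present in every library, with Pmel of the melanosome at 894 to 1216 FPKM and the lineage factor Sox10 at 99.9 to 167. Transcripts of lung epithelium were present in part of the libraries. The sum of 17 of their markers in CPM, counts scaled to library size, was 0.65, 0.316 and 78.2 in mutant IFNα, against 56.9, 52.1 and 68.9 in wild-type IFNα. It was 56.3, 70.4 and 60.3 in mutant control, against 51.4, 0.234 and 0.652 in wild-type control. None of the 17 lung markers was at 0 in every library, and no lung or erythroid marker that was tested passed. The part of these transcripts in the results was not tested beyond the fits named here, which divide the libraries by the lung markers. Mutant IFNα 3 also stood apart from its replicates. The standard deviation (SD) of its log2 ratio to them was 0.431 and 0.432 over 6318 genes, against 0.27 between the other two. With a term for libraries with lung transcripts 52 of the 105 genes reported below passed again, and 71 did so without mutant IFNα 3.

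Across the 17590 genes tested with edgeR's quasi-likelihood test, 105 differed between mutant IFNα and wild-type IFNα at an adjusted p under 0.05. That is 0.597% of all genes, with 83 higher (0.472%) and 22 lower (0.125%) in the mutant. The difference was at least 2-fold in 34 of them, 21 higher and 13 lower. All 105 had FPKM ranges that did not overlap, which was true of 18.5% of all genes tested (6.47% with the mutant higher, 12.1% with it lower). Over all genes the median log2 fold change was −0.01, and without the adjustment 2412 genes had a p under 0.05. Higher genes were mostly changed by less than 2-fold, at a median of 0.74, and 67 of the 83 reached a mean of 5 FPKM in the higher group. Lower genes had a median of −1.09 and 7 of the 22 reached that level. Predicted genes and pseudogenes made up 14 of the higher and 0 of the lower genes. Below, rose and fell mean higher and lower in mutant IFNα than in wild-type IFNα, and do not describe a change with IFNα.

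**Figure D1:**
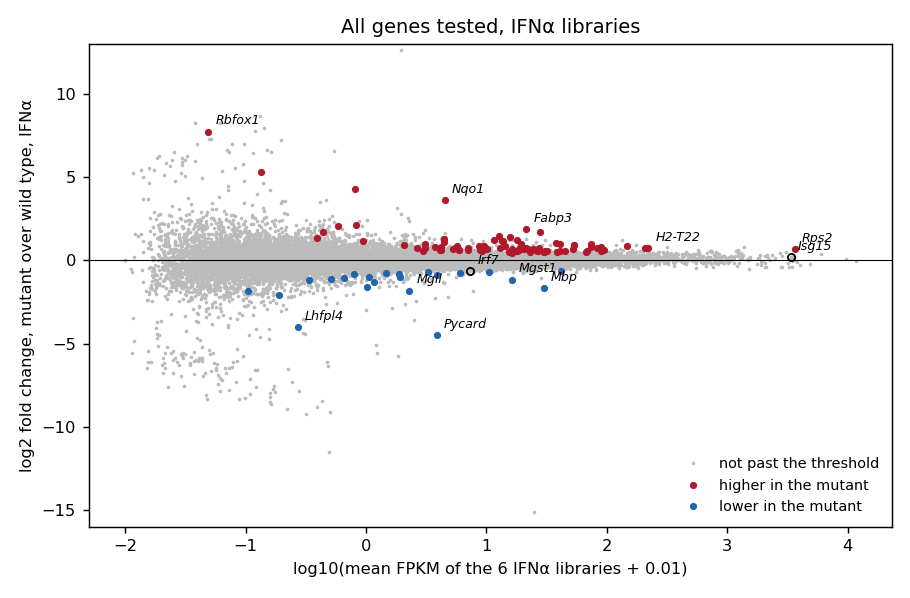
Log2 fold change of mutant over wild-type IFNα libraries (vertical) against log10 of the mean FPKM of the 6 libraries plus 0.01 (horizontal), 1 point per gene tested. The 83 higher genes (red) lie mostly between 0 and 2 at levels above 1 FPKM, while Nqo1 stands above and Pycard and Lhfpl4 stand below the rest at their levels, and Irf7 and Isg15 (open circles) did not pass.

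The count rested on few libraries. It was 27, 21 and 24 without wild-type IFNα 1, 2 and 3, 59 and 43 without mutant IFNα 1 and 2, 112 without mutant IFNα 3, and 63, 66 and 65 without mutant control 1, 2 and 3. Of the 105 genes 18 passed in each of the 12 fits that left out 1 library, and the other 87 all missed the threshold without at least 1 of the wild-type IFNα libraries. Wherever a gene was tested in these fits, its direction was the same. The lack of overlap between the groups left little room for another direction, so this is no separate support. With the 6 IFNα libraries alone, which leaves fewer libraries to estimate the spread, 14 genes passed, 13 of them among the 105. DESeq2 called 599 genes (437 higher, 162 lower). With library totals as scaling 32 were higher and 17 lower, and the median of all genes moved to −0.09.

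Nqo1, a quinone reductase and a classical target of the oxidative stress factor NRF2, had the largest increase among genes above 5 FPKM (ENSMUSG00000003849, chromosome 8, 108114857 to 108129838). Its FPKM was 8.48, 8.02 and 8.24 in mutant IFNα, against 0.573, 1.08 and 0.463 in wild-type IFNα. The mutant libraries were close to each other and far above every wild-type library, and the log2 fold change was 3.62 ± 0.344 (edgeR, adjusted p = 0.00017). Where 0.472% of all genes tested were higher, the other 31 NRF2 targets tested did not pass, and the median of all 32 was −0.10. Among them, Gpx4, which reduces lipid peroxides, was at 0.55 ± 0.147 (adjusted p = 0.11), and catalase (Cat) at −0.46 ± 0.121 (adjusted p = 0.11).

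Glutathione transferases, which couple glutathione to electrophiles and detoxify them, included lower genes. Of 23 tested 0 were higher and 2 were lower, against 0.472% and 0.125% of all genes tested, and the median of the list was −0.03. Mgst1, a membrane-bound transferase, fell to 11.3, 9.17 and 8.44 FPKM in mutant IFNα, against 19.2, 26.2 and 22.7 in wild-type IFNα (−1.16 ± 0.192, adjusted p = 0.0163). Gsta2, of the cytosolic alpha class, fell to 2.86, 2.88 and 2.15 FPKM, against 4.94, 5.21 and 5.36 (−0.89 ± 0.174, adjusted p = 0.0351). Neither gene overlapped between the groups. Mgst1 missed the threshold without wild-type IFNα 2, wild-type IFNα 3 or mutant IFNα 2. With the term for libraries with lung transcripts Mgst1 was at −1.08 and did not pass (edgeR adjusted p = 0.0766). Gsta2 passed in 2 of the 12 fits, at −0.97 to −0.77. Reads of Gsta2 may be shared with close copies of the alpha class, so its value is uncertain.

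Pycard, which encodes ASC, the adaptor that links inflammasome sensors to caspase-1, had the largest decrease of all genes that passed (ENSMUSG00000030793, chromosome 7, 127588880 to 127593039). It fell to 0.289, 0.48 and 0.175 FPKM in mutant IFNα, against 6.03, 7.7 and 8.54 in wild-type IFNα. The transcript was close to absent from the mutant and present at a moderate level in each wild-type library (−4.47 ± 0.305, adjusted p = 1.16e-05). Aim2, a sensor of cytosolic DNA that signals through ASC, was the other member of the nucleic acid sensing list that passed. It rose to 0.805, 0.735 and 0.408 FPKM, against 0.213, 0.218 and 0.202 (1.70 ± 0.35, adjusted p = 0.0444), at levels below 1 FPKM throughout, and it passed in 2 of the 12 fits without 1 library. The remaining 35 of 37 sensing genes did not pass, and the median of the list was 0.03. Higher genes were 0.472% and lower genes 0.125% of all genes tested. Zbp1, a sensor of Z-form nucleic acid that can start necroptosis, is counted below with the antiviral genes. It rose to 54.2, 51.3 and 54.4 FPKM, against 26.1, 30.9 and 30.1, a difference of 0.96 ± 0.133 (adjusted p = 0.00545) that passed in all 12 fits. Hmgb1, a chromatin protein that acts as a danger signal outside the cell, was at −0.68 ± 0.177 (adjusted p = 0.105). Irak4 was at −0.45 and the adaptor Myd88 at 0.39. Hmgb1, Irak4 and Myd88 did not pass the threshold.

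Most antiviral interferon-stimulated genes did not pass. Of 61 tested 5 were higher, 0 were lower and 56 did not pass, and the median of the list was 0.13. Of all genes tested 0.472% were higher and 0.125% lower. The 95% interval lay under 2-fold in both directions for 55 of the 61. Oasl1, a member of the oligoadenylate synthetase family that lacks synthetase activity and restrains translation of Irf7 mRNA in mice, rose the most. Its FPKM was 46, 40.9 and 62.5 in mutant IFNα, against 26.5, 24.2 and 26.6 in wild-type IFNα (1.05 ± 0.153, adjusted p = 0.00722). Mutant IFNα 3 was the highest of these libraries, and without it the difference was 0.84 and still passed (adjusted p = 0.0102). The call was lost without wild-type IFNα 1 or 2.

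Isg20, an exonuclease that degrades viral RNA, rose to 26.3, 27.9 and 24.4 FPKM, against 17.2, 16.6 and 15.4 (0.77 ± 0.108, adjusted p = 0.00545). It was called in all 12 fits. Oas1b is an inactive oligoadenylate synthetase linked to flavivirus resistance in some mice. It rose to 29.8, 31.7 and 26.6 FPKM, against 19.6, 19.7 and 19.2 (0.68 ± 0.105, adjusted p = 0.0114). Its call was lost without any 1 of the wild-type IFNα libraries. With the term for libraries with lung transcripts Isg20 passed (edgeR adjusted p = 0.0207) and Oas1b did not (0.0529). Mx2, a dynamin-like GTPase active against viruses, rose to 26.4, 28.1 and 20.0 FPKM, against 17.8, 15.8 and 16 (0.68 ± 0.131, adjusted p = 0.0321), and passed in 5 of the 12 fits (chosen after its values were seen). For these genes the 3 mutant libraries all exceeded the 3 wild-type ones, by the smallest margin in Mx2, where mutant IFNα 3 was lowest. Without mutant IFNα 3 the list had 9 higher members. With the 6 IFNα libraries alone none of these 5 genes passed, at an edgeR adjusted p of 0.0594 for Zbp1, 0.0627 for Isg20, 0.0832 for Oasl1, 0.108 for Oas1b and 0.146 for Mx2.

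Several of the best known interferon-stimulated genes were among those that did not pass. Isg15, a ubiquitin-like modifier and one of the most abundant transcripts, was at 3469, 3499.8 and 3487 FPKM in mutant IFNα, against 2716, 3676 and 3392 in wild-type IFNα. The groups overlapped, and the difference of 0.18 ± 0.161 (adjusted p = 0.686) had a 95% interval of −0.17 to 0.52. Ifit1, which binds viral RNA lacking cap methylation, was at −0.13 ± 0.157, Rsad2, which makes a chain-terminating nucleotide, at −0.07 ± 0.158, and Usp18, which removes ISG15 and dampens receptor signalling, at 0.21 ± 0.147. Their smallest adjusted p was 0.569. Mx1 at 0.60 ± 0.142 (adjusted p = 0.0745) and Oas1a at 0.38 ± 0.125 (adjusted p = 0.194) lay closer to the threshold. Oas1 and Ifit genes have close copies that may share reads, so their single values are uncertain.

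Regulators of the response showed no gene past the threshold either. Of 12 interferon regulatory factors 0 passed (4 at an unadjusted p under 0.05), and the median was 0.07. Irf1, which is induced by interferon, was at 16.6, 17.5 and 16.8 FPKM in mutant IFNα, against 15.9, 12.4 and 12.8 in wild-type IFNα (0.41 ± 0.0978, adjusted p = 0.0771). Irf9 and Stat2, which act together on response elements, were at 0.06 ± 0.103 and 0.08 ± 0.13, values that fall below 0 with library totals as scaling. Of 27 JAK, STAT and SOCS genes 0 passed, at a median of 0.04. Among 8 interferon and receptor genes 0 passed. Ifnb1, the gene of interferon beta, was at 36.7, 36.8 and 34 FPKM in mutant IFNα, against 24.2, 31 and 25.5 in wild-type IFNα (0.50 ± 0.163, adjusted p = 0.194), while Ifna4, one of the interferon alpha genes that IRF7 is known to drive, was at 4.09, 3.91 and 4.83, against 6.06, 9 and 8.72 (−0.81 ± 0.362, adjusted p = 0.342). Of 39 chemokine and cytokine genes 0 passed, with the T-cell attractants Ccl5 at 0.62 ± 0.149 (adjusted p = 0.0772) and Cxcl10 at 0.03 ± 0.117 (adjusted p = 0.935), a value for Cxcl10 that falls below 0 with library totals.

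MHC class I heavy chains, whose classical forms present peptides to CD8 T cells, included the highest share of called members among the 41 lists. The lists were chosen with earlier results of these data known, so this rank is no separate support. Of 16 genes tested, with B2m, 4 were higher and 0 lower, against 0.472% and 0.125% of all genes tested. The median log2 fold change of the 16 was 0.65. The H2-K2 transcript rose to 21.2, 20.6 and 24.7 FPKM in mutant IFNα, against 9.09, 8.27 and 9.58 in wild-type IFNα (1.40 ± 0.146, adjusted p = 0.000392), and passed in every fit. H2-K1, the classical K molecule, rose to 114, 103 and 86.8 FPKM, against 69.4, 59.1 and 62.2 (0.77 ± 0.114, adjusted p = 0.00758), with a call lost without wild-type IFNα 2 or 3. H2-T22, a ligand of gamma delta T cells, rose to 255, 291 and 267 FPKM, against 165, 180.2 and 166 (0.76 ± 0.108, adjusted p = 0.00625), in all 12 fits. H2-T23, which encodes Qa-1, a ligand of the inhibitory receptor NKG2A, rose to 7.15, 7.71 and 6.11 FPKM, against 5.2, 4.52 and 4.62 (0.64 ± 0.121, adjusted p = 0.0294), and passed in 4 of the 12 fits. The ranges of the groups were apart in all 4 genes. With the 6 IFNα libraries alone H2-K2 passed (adjusted p = 0.00412), while H2-K1 (0.0981), H2-T22 (0.104) and H2-T23 (0.16) had adjusted p-values above 0.05. Reads can be shared between these close copies, H2-K2 and H2-K1 above all, so single values are uncertain. B2m, the invariant light chain, was at 0.35 ± 0.165 and did not pass (adjusted p = 0.365).

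The machinery that makes and loads peptides had fewer calls. Of 13 genes 1 was higher, 0 were lower and 12 did not pass, at a median of 0.35. For this list and those below in this paragraph, 0.472% of all genes tested were higher and 0.125% lower. Psmb10, an inducible catalytic subunit of the immunoproteasome, rose to 75.6, 75.7 and 77 FPKM, against 60.6, 55.3 and 56.6 (0.50 ± 0.0945, adjusted p = 0.0308, in 4 of the 12 fits). Psmb9, another such subunit, was at 0.75 ± 0.206 (adjusted p = 0.123), the peptide transporter genes Tap1 and Tap2 at 0.37 ± 0.113 and 0.46 ± 0.131, and Nlrc5, the transactivator of class I genes, at −0.20 ± 0.193. These did not pass. Class II genes had 0 of 13 past the threshold, with Cd74, the invariant chain, at 0.91 ± 0.197 (adjusted p = 0.054). Checkpoint ligands had 0 of 17, with Cd274, which encodes PD-L1, at 0.21 ± 0.155. Interferon-inducible GTPases had 1 of 17, Tgtp1, and a median of 0.29. Tgtp1, an immunity-related GTPase that attacks vacuoles of intracellular parasites, rose to 98.1, 91.7 and 85.3 FPKM, against 59.1, 59.7 and 49.7 (0.80 ± 0.14, adjusted p = 0.0207, in 7 of the 12 fits), and has a close copy with which reads may be shared.

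**Figure D2:**
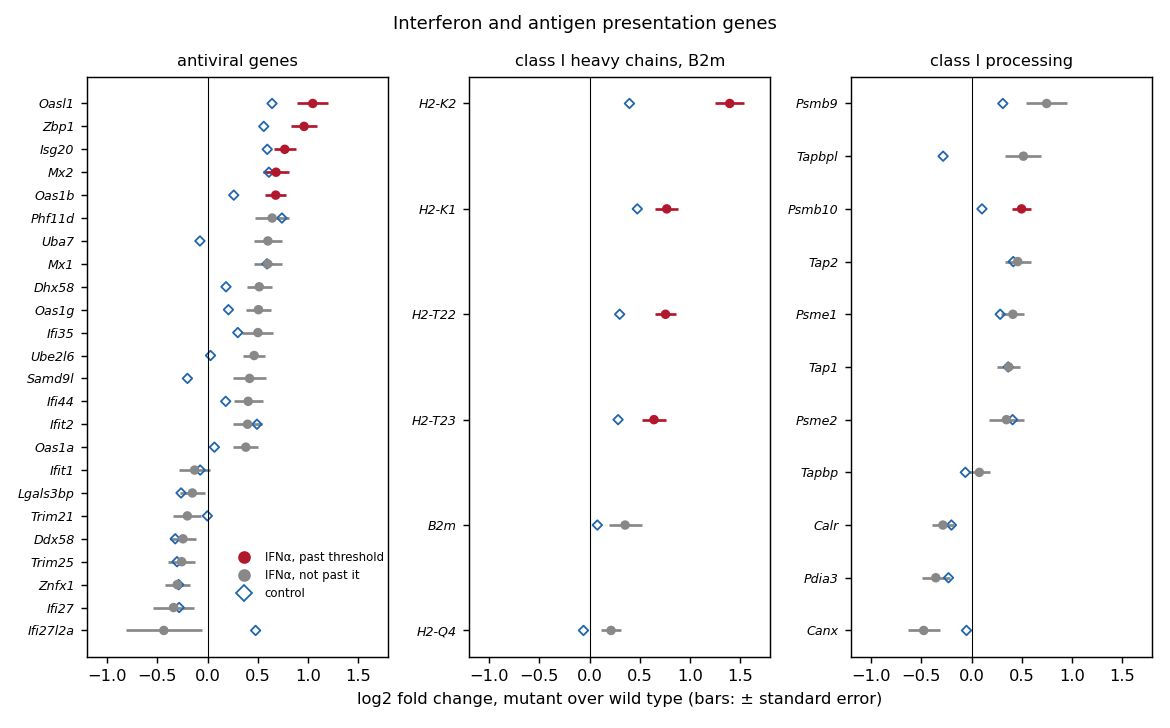
Log2 fold change of mutant over wild type for antiviral, MHC class I and class I processing genes with a mean of at least 5 FPKM in a group. Circles with bars are the IFNα libraries (estimate ± standard error, red where past the threshold), and diamonds are the controls. Of 48 antiviral genes the 16 highest and the 8 lowest are drawn, of which 5 passed, and the class I panel draws 6 of 7 genes, of which 4 passed.

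Promoters were compared because interferon response elements are known to drive these genes. The letters GAAA, any 2 bases, and GAAA again, as in such an element, were searched on both strands in RefSeq promoter windows of GRCm38.p6, from 250 bases before to 50 bases after each gene start. They occurred in 3.44% of all 32851 windows and in 3.77% of the 11643 tested genes with a window. Of the 83 higher genes 61 had a window, and 6 of those (9.84%) held the letters, namely Acsbg1, H2-T22, H2-T23, Tgtp1, Mdfi and Ppp1r15a. None of the antiviral genes that passed is among them. Isg20 and Oasl1 had windows without the letters, as had H2-K1 and Psmb10, and Zbp1, Oas1b and Mx2 had no window. Of the 22 lower genes 20 had a window and 0 held them. Among the antiviral interferon-stimulated genes 25 of 48 with a window (52.1%) did. A match is a run of letters and not a measured binding site.

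The stretches below show the element, in capitals, in 3 picked from the 6 higher genes that hold it. They also show it in Isg15 and Ifit1, which did not pass. The stretches run 5′ to 3′ on the strand of the gene, are 100 bases long and lie at chr17:36042879-36042978, chr17:36032771-36032870, chr11:48992269-48992368, chr4:156200830-156200929 and chr19:34640759-34640858. TTTC, any 2 bases, TTTC is the same element read on the other strand. The last element ends 181 bases before the gene start in H2-T22, 114 in H2-T23, 67 in Tgtp1, 56 in Isg15 and 75 in Ifit1.
H2-T22: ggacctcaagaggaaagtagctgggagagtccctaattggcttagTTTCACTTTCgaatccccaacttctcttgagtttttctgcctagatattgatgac
H2-T23: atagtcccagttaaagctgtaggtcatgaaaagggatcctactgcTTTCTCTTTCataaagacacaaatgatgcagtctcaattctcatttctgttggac
Tgtp1: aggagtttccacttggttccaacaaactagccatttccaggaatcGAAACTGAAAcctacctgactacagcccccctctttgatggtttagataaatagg
Isg15: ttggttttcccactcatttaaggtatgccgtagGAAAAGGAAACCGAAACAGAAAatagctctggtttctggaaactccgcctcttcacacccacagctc
Ifit1: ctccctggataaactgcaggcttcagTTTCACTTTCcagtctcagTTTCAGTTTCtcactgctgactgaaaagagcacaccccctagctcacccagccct
The 3 genes that were higher hold 1 match each in these stretches, while Isg15 holds 3 overlapping ones and Ifit1 holds 2.

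Fabp3, which carries fatty acids in the cytosol, rose to 35.9, 33.4 and 30.3 FPKM in mutant IFNα, against 9.53, 9.18 and 9.75 in wild-type IFNα (ENSMUSG00000028773, chromosome 4, 130202388 to 130209256). The groups were tight and far apart (1.90 ± 0.154, adjusted p = 3.82e-05). Acsbg1, which activates long-chain fatty acids with coenzyme A, rose to 5.89, 6.25 and 5.55 FPKM, against 3.45, 2.91 and 2.51 (1.09 ± 0.147, adjusted p = 0.00486). Stard5, a carrier of sterols and bile acids, rose to 10.6, 11.5 and 10.7 FPKM, against 6.78, 6.49 and 6.03 (0.86 ± 0.099, adjusted p = 0.00104). All 3 passed in each of the 12 fits. Apod, a lipocalin that binds arachidonic acid, rose to 11.7, 12 and 11.8 FPKM, against 8.51, 6.63 and 6.05 (0.84 ± 0.125, adjusted p = 0.00758), a call lost without wild-type IFNα 2 or 3. Mgll, which cleaves monoacylglycerols and degrades an endocannabinoid, fell to 0.894, 1.07 and 0.89 FPKM, against 4.36, 3.56 and 2.85 (−1.81 ± 0.16, adjusted p = 8.29e-05). Elovl4, which extends very long-chain fatty acids, fell to 0.557, 0.699 and 0.658 FPKM, against 2.03, 1.41 and 1.53 (−1.27 ± 0.178, adjusted p = 0.00545). Mgll and Elovl4 also passed in all 12 fits and lay below the level that the rule for named genes asked for, so they were chosen after their values were seen.

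In the list of fatty acid handling genes, 1 of 36 was higher (Fabp3) and 0 were lower, against 0.472% and 0.125% of all genes tested. The median of that list was −0.11. Fabp4, a relative of Fabp3 known from fat cells and macrophages, was at 0.0228, 0.0115 and 0.165 FPKM in mutant IFNα, against 0.0984, 5.14 and 1.78 in wild-type IFNα, and did not pass (adjusted p = 0.11). The cholesterol synthesis list had 0 of 32 past the threshold and a median of −0.17, with the pathway enzymes Sqle at −0.55 ± 0.125 (adjusted p = 0.0664), Idi1 at −0.73 ± 0.189 (adjusted p = 0.101) and Hmgcs1 at −0.81 ± 0.208 (adjusted p = 0.097). FPKM ranges did not overlap in 12 of those 32 genes, all 12 lower in the mutant, against 12.1% of all genes lower without overlap.

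**Figure D3:**
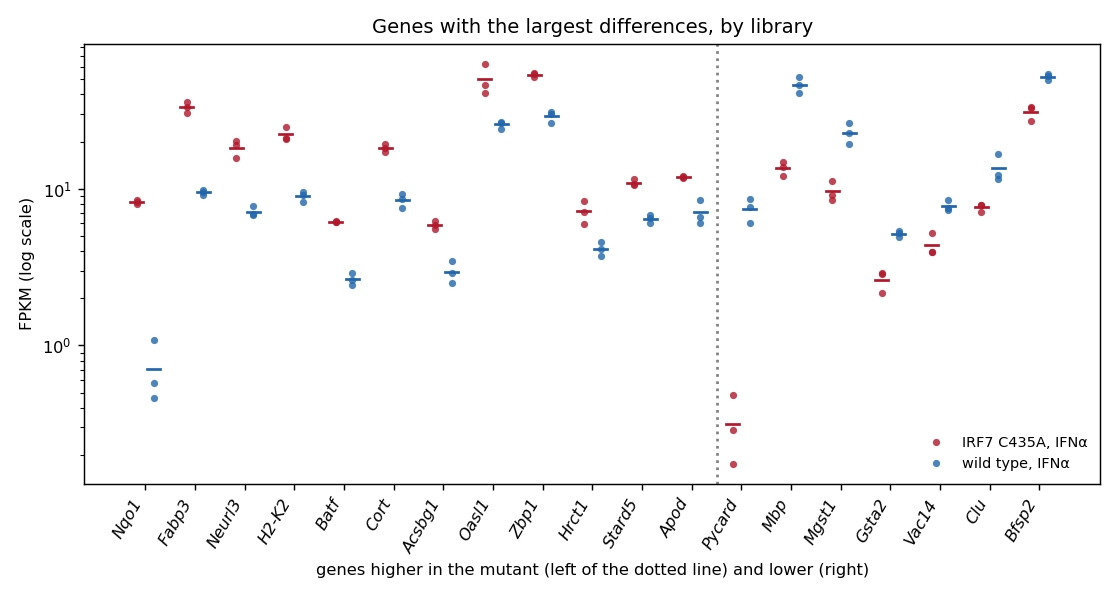
FPKM on a log axis in each mutant IFNα (red, left) and wild-type IFNα library (blue, right) for the 12 genes with the largest increase and the 7 with the largest decrease by the rule for named genes; short lines are group means. The rule required that the groups not overlap, so their separation in the 19 genes was fixed by the choice, and Nqo1 and Pycard show the widest gaps.

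Among the remaining large increases, Neurl3, an E3 ubiquitin ligase induced by inflammation, rose to 20.1, 18.9 and 15.8 FPKM in mutant IFNα, against 7.78, 6.8 and 6.87 in wild-type IFNα (1.45 ± 0.143, adjusted p = 0.000225). It passed in all 12 fits. Cort, which encodes the neuropeptide cortistatin, rose to 18.2, 19.4 and 17.2 FPKM, against 7.57, 9.2 and 8.55 (1.20 ± 0.211, adjusted p = 0.0219, in 7 of the 12 fits). With the term for libraries with lung transcripts Neurl3 passed (edgeR adjusted p = 0.00442) and Cort did not (0.0586). Hrct1 rose to 5.94, 7.13 and 8.41 FPKM, against 3.71, 4.58 and 4.1 (0.88 ± 0.178, adjusted p = 0.0405, in 2 of the 12 fits).

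Among genes below 1 FPKM in wild-type IFNα with large increases, Nmb, which encodes the peptide neuromedin B, rose to 1.73, 1.97 and 0.883 FPKM, against 0.0598, 0.138 and 0 (4.31 ± 0.869, adjusted p = 0.0393). In the controls it was at 4.66 ± 0.891. Nmb was picked with its values known.

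Transcription factors of immediate response and differentiation were represented by Batf, Junb, Id1 and Id3. Batf, an AP-1 family member that pairs with JUN proteins and IRF4 or IRF8 in lymphocytes, rose to 6.22, 6.14 and 6.16 FPKM in mutant IFNα, against 2.62, 2.43 and 2.9 in wild-type IFNα (1.31 ± 0.177, adjusted p = 0.00486, in all 12 fits). Junb rose to 33.7, 29.1 and 30.5 FPKM, against 24.3, 21.6 and 22.1 (0.55 ± 0.11, adjusted p = 0.0371, in 3 fits). They were the 2 of 31 AP-1 and immediate early genes that passed, 0 being lower, at a median of 0.16. For this list and those below in this paragraph, 0.472% of all genes tested were higher and 0.125% lower. Id1 and Id3 block helix-loop-helix transcription factors and are targets of BMP signals. Id1 was at 23, 26.7 and 30.0 FPKM in mutant IFNα, against 17.8, 19.4 and 16.4 (0.66 ± 0.123, edgeR adjusted p = 0.0291). Id3 was at 109, 123 and 102 FPKM, against 75.4, 81.2 and 75.1 (0.62 ± 0.12, edgeR adjusted p = 0.0332). Each passed in 4 of the 12 fits. In the controls their log2 fold changes were −0.20 ± 0.122 and 0.07 ± 0.119. Mean FPKM there was 32.6 (mutant) and 40.1 (wild type) for Id1, and 152 and 155 for Id3. These means lay above the IFNα libraries of both lines. Id1 and Id3 were the 2 of 22 genes of that list that passed, at a median of −0.03. Ppp1r15a, which ends the integrated stress response by guiding a phosphatase to eIF2α, was the 1 of 34 ATF4-related genes that passed (0.53 ± 0.108, adjusted p = 0.044, in 1 of the 12 fits), at a median of 0.17.

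Among the other decreases, Mbp, the myelin basic protein gene, fell to 13.8, 12.1 and 14.7 FPKM in mutant IFNα, against 51.6, 41 and 45.9 in wild-type IFNα (−1.67 ± 0.123, adjusted p = 1.55e-05). It was the 1 of 21 Schwann cell and neural crest genes that passed, and the median of that list was 0.05. Lower genes were 0.125% of all genes tested. Lhfpl4, which anchors GABA receptors at synapses in neurons, fell to 0.0335, 0.00891 and 0.0417 FPKM, against 0.598, 0.479 and 0.401 (−4.03 ± 0.448, adjusted p = 0.000743). Both passed in all 12 fits, and Lhfpl4, at levels under 1 FPKM, was chosen after its values were seen. Bfsp2, a lens filament protein, fell to 33.4, 32.7 and 27.1 FPKM, against 53.8, 52.2 and 49.4 (−0.65 ± 0.107, adjusted p = 0.0163), and Clu, the extracellular chaperone clusterin, to 7.92, 7.08 and 7.88 FPKM, against 16.6, 11.6 and 12.2 (−0.72 ± 0.119, adjusted p = 0.0163). Bfsp2 lost its call without wild-type IFNα 2 or 3, and Clu without wild-type IFNα 1, wild-type IFNα 3 or mutant IFNα 2. With the term for libraries with lung transcripts Bfsp2 passed (edgeR adjusted p = 0.0172) and Clu did not (0.0566). Vac14, the scaffold of the PIKfyve lipid kinase complex, fell to 3.94, 3.97 and 5.23 FPKM, against 8.43, 7.28 and 7.56 (−0.73 ± 0.14, adjusted p = 0.0321, in 3 of the 12 fits), and was the 1 of 14 phosphoinositide genes that passed.

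Pigmentation genes had 0 of 32 past the threshold and a median of −0.18, with 11 members at p under 0.05 before adjustment, as were 2412 of 17590 genes in all. Tyr, the first enzyme of melanin synthesis, was at 19.9, 19.8 and 15 FPKM in mutant IFNα, against 31.8, 25.1 and 23.5 in wild-type IFNα (−0.46 ± 0.143, adjusted p = 0.17), and Mitf, the lineage regulator, at 3.26, 3.65 and 3, against 5.88, 4.35 and 4.05 (−0.42 ± 0.133, adjusted p = 0.172). For both the 3 mutant libraries lay below all wild-type ones, as they did for 12 of the 32 genes and for 12.1% of all genes tested. Of 44 mitosis genes 0 passed, at a median of −0.23, with 8 above 0 and 14 at an unadjusted edgeR p under 0.05. Without overlap 16 were lower in the mutant and 1 was higher, against 12.1% and 6.47% of all genes tested. The proliferation marker Mki67, at 0.02 ± 0.194 (below 0 with library totals), was unlike most of that list. Of 45 replication genes 0 passed, at a median of −0.11, with 13 lower and 3 higher without overlap.

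Of 29 genes of nitric oxide synthesis and denitrosylation 0 passed, with 4 at an unadjusted p under 0.05 and a median of −0.01. Nos1 had 12, 0 and 26 counts in mutant IFNα, against 18, 4 and 4 in wild-type IFNα, and its difference of 0.87 ± 1.25 carries an interval too wide to give a direction (−1.81 to 3.56). Nos2, the inducible synthase, had 0 counts in each of the 6 libraries and was not tested. Nos3, the endothelial synthase, was at 0.773, 0.554 and 0.397 FPKM, against 0.735, 0.62 and 0.554 (−0.05 ± 0.293, adjusted p = 0.962).

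Ribosomal protein genes had 1 of 79 higher and 0 lower, against 0.472% and 0.125% of all genes tested, at a median of 0.10. Rps2, a small subunit protein, rose to 3973, 5165 and 3948 FPKM, against 2771, 3035 and 2914 (0.67 ± 0.128, adjusted p = 0.0316, in 3 of the 12 fits). Of the 10 processed copies tested that carry its name, 4 were also higher, Rps2-ps8 at 1.24, Rps2-ps6 at 0.96, Rps2-ps13 at 0.94 and Rps2-ps10 at 0.86. Copies under other names, such as predicted genes, were not searched for. How many of the higher genes share reads with Rps2 was not tested. Reads of Rps2 and of the copies cannot be told apart with certainty, and the copies were chosen after their values were seen. No gene passed in the lists of DNA replication, heat shock, NF-kB, oxidative phosphorylation, constitutive proteasome, collagen, mesenchymal and melanoma driver genes.

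The difference between the lines with IFNα was next set beside the difference without it, which uses 6 other libraries. In the controls 29 genes passed (0.165%), 15 higher (0.0853%) and 14 lower (0.0796%) in the mutant. Of these, 20 also passed with IFNα, all 20 in the same direction, which is 19% of the 105 IFNα calls and 69% of the 29 control calls. Nqo1, Fabp3, Batf, Neurl3, Apod and Isg20 were among those higher in both comparisons, and Pycard, Mbp, Mgll, Lhfpl4, Vac14, Clu, Bfsp2 and Elovl4 among those lower in both. In the controls Nqo1 was at 3.27 ± 0.34, Fabp3 at 1.81 ± 0.153, Pycard at −3.98 ± 0.298 and Mbp at −1.87 ± 0.124.

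Of the 105 genes 103 had the same sign in the controls, against 61.1% of all genes tested. Most were further from 0 with IFNα, as 91 of the 105 were. Selection on the IFNα values favours that order, and it was not tested. The 83 higher genes had a median of 0.74 with IFNα and 0.35 in the controls, and the 22 lower ones had −1.09 and −0.75. H2-K2 was at 0.40 ± 0.144 in the controls (adjusted p = 0.355), with H2-K1 at 0.47, H2-T22 at 0.30 and H2-T23 at 0.28. The 2 genes with another sign in the controls were Id1 and Klf13, a transcription factor at −0.83 ± 0.158 with IFNα and 0.02 ± 0.158 without it, named after its values were seen. The difference between the comparisons, tested as the interaction of IRF7 form and IFNα in edgeR, passed in 0 of 17590 genes, while 909 had p under 0.05 before adjustment, DESeq2 called 14 and limma called 0. Lung transcripts were uneven between the lines in both comparisons, in opposite directions, so their imbalance runs along with the interaction. With the term for these transcripts 0 genes passed the interaction, and their part in it was not tested further. Among the 105 genes the smallest edgeR adjusted p of the interaction was 0.916. A gene past the threshold with IFNα and not in the controls is therefore not shown to differ between them.

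**Figure D4:**
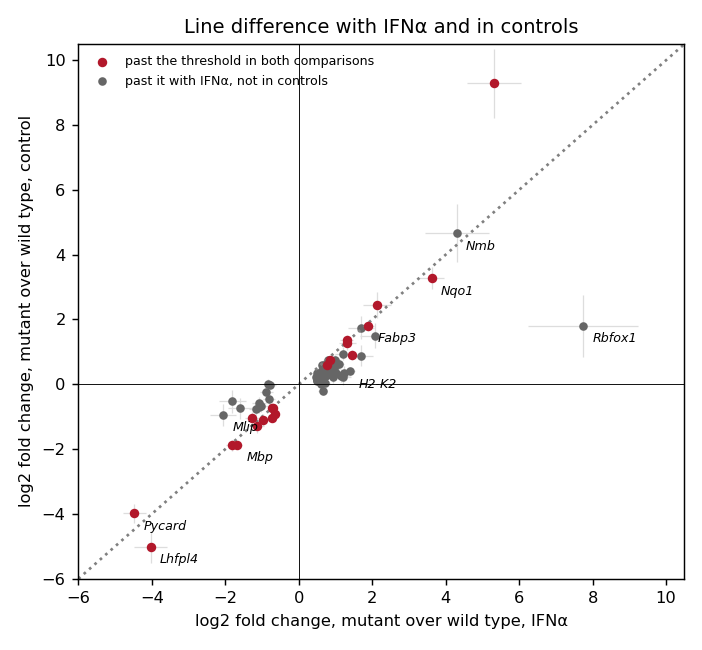
Log2 fold change of mutant over wild type in the IFNα libraries (horizontal) and in the controls (vertical) for the 105 genes that passed with IFNα, with bars of 1 standard error; red points passed in both comparisons, and the dotted line marks equal values. Of the 20 red points 5830444B04Rik (5.32 with IFNα, 9.29 in the controls) and Lhfpl4 (−4.03 with IFNα, −5.01 in the controls) lie furthest from the line, and 91 of the 105 genes are further from 0 with IFNα.

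Genes of chromosome 16 lay higher in the mutant than those of other chromosomes. Of 540 tested 12 were higher (2.22%, against 0.472% of all genes) and 0 lower. They are Mx2, Apod, Prodh, Dgcr6, Trmt2a, Nmral1, Anks3, Carhsp1, Vps8, Thap7, Rcan1 and Rbfox1. Over the 165 genes of that chromosome with at least 5 FPKM the median log2 fold change was 0.26, and it was 0.22 in the controls. By library it was 0.25, 0.25 and 0.26 in mutant IFNα, against −0.04, 0.05 and 0.01 in wild-type IFNα, each wild-type library being set against the mean of the other two and each mutant library against the mean of all 3. Against the mean of the wild-type controls, the mutant control libraries were at 0.28, 0.23 and 0.23. The wild-type controls, set against each other in the same way, were at 0.04, −0.01 and −0.03, so with and without IFNα each mutant library lay above the 3 wild-type libraries of its own comparison. The median was 0.24 without mutant IFNα 3 and 0.26 with trends in length and GC content removed, over the 164 genes with a known transcript. Chromosome 17, which holds the MHC, had 12 of 890 genes higher (1.35%) and a median of 0.10 over 323 genes with IFNα and 0.03 in the controls.

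**Figure D5:**
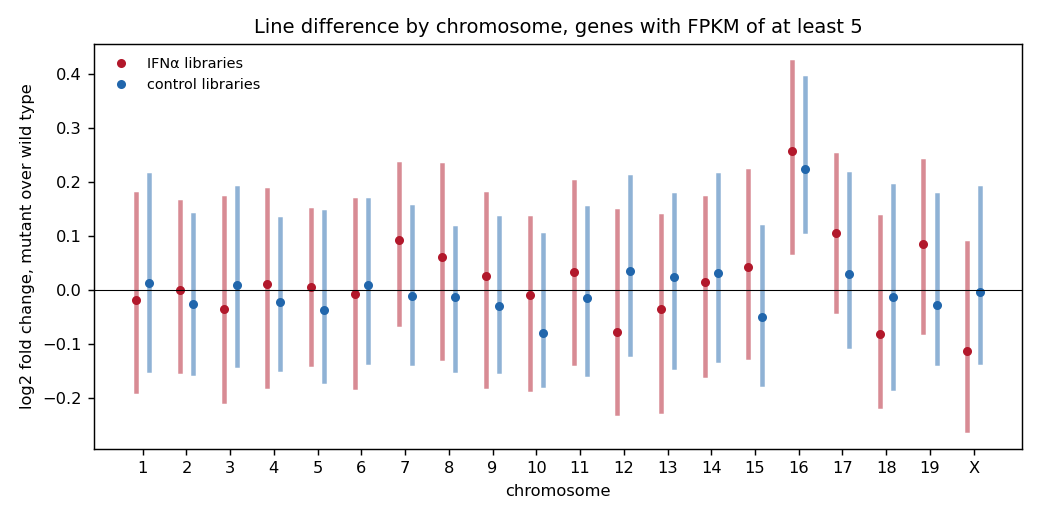
Median log2 fold change (points) and the range from the lower to the upper quartile (bars) of genes with at least 5 FPKM, by chromosome, for the IFNα libraries (red, left) and the controls (blue, right). Chromosome 16 has the highest median in both, at 0.26 and 0.22, and chromosome 17 is next with IFNα, at 0.10.

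Some genes that passed are neighbours. Within 500 kb of each other, by the deposited positions, lie Neurl3 and Arid5a on chromosome 1, Nmral1 and Anks3, and Dgcr6, Prodh and Trmt2a on chromosome 16, and Eci1, Nthl1, Rps2 and Msrb1, H2-K2 and H2-K1, and Flot1, H2-T23 and H2-T22 on chromosome 17. All of these were higher in the mutant. Genes named here for their position were chosen after their values were seen.

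The size of the difference also went with base composition. Over 5619 genes with at least 5 FPKM and a known transcript, the Spearman correlation of the log2 fold change with GC content was 0.40 and with transcript length −0.27, as a description across genes of the same 6 libraries. In the controls these were −0.17 and −0.42. Higher genes had a median GC content of 55.4% and a median length of 1874 bases, lower genes 47.5% and 3577, and all genes tested 49.9% and 2857. Without mutant IFNα 3 the correlation with GC content was 0.27. With the trend of each library with length and GC removed, 162 genes passed, and 83 of the 105 were among them. The part of composition in single differences was not tested further.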

How the data were processed

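Poly(A)-selected RNA of B16F10 cells was sequenced in paired, strand-marked libraries with unique molecular identifiers, per the labels' protocols. The submitters' processing notes name GRCm38 and, with no role or order, StringTie 1.3.4d, HISAT2 2.0.4, cutadapt 1.9, edgeR, DESeq2 and UMI-tools. The authors deposited 1 table with a raw count and an FPKM value per gene and library. Values of 1 to 30 were multiples of 4 in 33.6% of counts, against 23.3% of those numbers, and the counting unit is not given in the sources used here. The FPKM values that the authors deposited were used for levels and the counts for tests.

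From the counts, edgeR 4.0.16 (R 4.3.3) was fitted to all 12 libraries with 4 group means, TMM scaling and its filter on low counts, which kept 17590 of 27503 genes. Its quasi-likelihood test, two-sided, was adjusted by Benjamini-Hochberg over all genes tested, and genes with an adjusted p under 0.05 are said to pass. The biological coefficient of variation was 28.9%. The script was checked on simulated data. DESeq2 1.42.0 and limma 3.58.1 served as alternatives, with other scalings, filters, terms and sets of libraries.

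The text names the 12 genes with the largest increase and up to 12 with the largest decrease among called genes with at least 5 FPKM in the higher group and no overlap, leaving out predicted genes and pseudogenes. It also names genes of a fixed set of 29, of which 2 are not reported here, and up to 4 members with the smallest adjusted p of each of 41 gene lists. The members and lists were chosen with earlier results of these data known. Promoter windows are RefSeq's, and length and GC content come from GENCODE M21. Coordinates of genes are those of the deposited table and differ from GRCm38. Figures were drawn with matplotlib 3.10.9.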

Additional observations from a re-analysis of the deposited data

How the results depend on the processing

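The 105 genes kept their direction in each of the 25 settings in which they were tested (genes at low levels were not tested in all of them). Their groups did not overlap, which left little room for another direction. In every setting that tested them 10 passed (Batf, Fabp3, H2-K2, Mbp, Mgll, Neurl3, Nqo1, Pycard, Stard5 and Lhfpl4). The number called was 599 with DESeq2, 49 with library totals, 56, 59 and 38 with limma on log2(FPKM + 1), on log2(FPKM + 0.1) and without a filter, 14 with the 6 IFNα libraries alone, and 21 to 112 with 1 library left out. In the controls, with 29 reported, it was 240 with DESeq2 and 11 to 58 with 1 library left out: 14 and 17 without wild-type control 2 and 3, 14, 14 and 11 without mutant control 1, 2 and 3, and 58 without mutant IFNα 3. The interaction gave 14 genes with DESeq2. Settings chosen after seeing the data followed. Restricted to the 8 libraries with lung transcripts, the counts were 1136 with IFNα, 16 in the controls and 47 for the interaction, and only 1 mutant IFNα library and 1 wild-type control library then remain, each assumed to vary like the others. With length and GC trends removed they were 162 and 63. The planned term for lung transcripts could not be fitted, because Lyz2 put every library past its limit, and a term without Lyz2 replaced it. The labels name no pairing of libraries by replicate number. Same-numbered deviations correlated between −0.41 and 0.34, over 0.1 in 11 of 18 pairs. They were not compared with those of different numbers, so a pairing was not tested. With the replicate block 59 genes passed with IFNα and 17 in the controls. Genes near 0 changed sign in some settings. With library totals Irf9 was at −0.0254, Stat2 at −0.00101, Cxcl10 at −0.0479 and Mki67 at −0.0560. The 3 limma forms gave −0.0345, −0.0363 and −0.0345 for Irf9, −0.00976, −0.0106 and −0.00976 for Stat2, −0.0598, −0.0600 and −0.0598 for Cxcl10, and −0.0537, −0.0956 and −0.0537 for Mki67. With 1 library left out the range was −0.35 to 1.82 for Nos1, −0.33 to 0.15 for Nos3, −0.18 to 0.0902 for Rsad2, −0.0551 to 0.0937 for Cxcl10 and −0.12 to 0.19 for Mki67, where Nos1 and Nos3 changed sign without mutant IFNα 3. The lung term gave −0.0387 for Stat2, 0.10 for Ifit1 and −0.0765 for Mki67, and the 8 libraries −0.00972 for Irf9 and −0.23 for Usp18. Rsad2 was at 0.0889 with length and GC trends removed, and Mki67 at −0.0140 with the block. The cause of these changes was not tested. No direction is given for Nos1, with at most 26 counts in a library, or for Nos2, with 0 in the 6 IFNα libraries.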
